A study of Mus musculus with 6 samples.

Results

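Notch receptors, their ligands, the nuclear factor that carries their signal and its best known targets were examined in CMT93, a colorectal cancer cell line from mouse, grown as spheroids. The set was named by gene symbol: Notch1, Notch2, Notch3, Dll1, Dll4, Jag1, Jag2, Rbpj, Hes1 and Hey1. Of these 10 genes, 9 were counted among 23399 genes in the series, and all 9 passed the filter on low counts that left 14987 genes. Dll1 was not analysed here. Palmitate spheroids, 3 samples, were grown with 200 µM sodium palmitate, a saturated fatty acid, which had been dissolved in ethanol and bound to bovine serum albumin (BSA). Vehicle spheroids, 3 samples, received ethanol and BSA without palmitate. Both groups are labelled wildtype, and both spent 1 week in monolayer and then 5 days as spheroids over soft agar with a little Matrigel. Polyadenylated RNA was sequenced.

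Notch is a signalling route between touching cells. A ligand of the Delta or Jagged family on a neighbouring cell pulls on the receptor, which is then cut outside and within the membrane, and the freed intracellular fragment joins RBPJ on DNA and switches on repressor genes of the Hes and Hey families. In the gut epithelium this route keeps progenitors dividing and favours absorptive over secretory fates.

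Libraries held 22.5 to 22.9 M counts with palmitate and 18.9 to 21.9 M with vehicle, so every palmitate library was deeper. Nothing in the labels says that the numbered samples were separate cultures, and the spread that each p-value rests on may therefore be technical. The epithelial markers Epcam and Cdh1 were abundant, at 657 ± 12.5 and 2091 ± 26.0 CPM (counts scaled to the library total) with palmitate and 673 ± 11.0 and 2158 ± 10.8 CPM with vehicle (SD, n = 3 each), and the intestinal factor Cdx2 was low, at 2.46 ± 0.365 CPM with palmitate and 1.72 ± 0.276 CPM with vehicle. All 9 counted markers of a list of 10 colon epithelial genes summed to 6800 to 6900 CPM with palmitate and 7410 to 7490 CPM with vehicle. Of these, Cdh1, Krt8 and Krt18 were called lower (log2 fold changes -0.045, -0.24 and -0.42). Krt19, Cldn7 and Cdx2 were called higher (0.13, 0.06 and 0.51). Vil1 averaged 14.4 CPM with palmitate and 15.7 CPM with vehicle, and Krt20 was near 0, at 0.237 and 0.146 CPM. Of 6 endothelial markers, a cell type known for Notch1, Notch4 and Dll4, none was at 0 in every library, and their sum was 38.4 to 41.1 CPM with palmitate and 35.8 to 37.7 CPM with vehicle. Most of that sum was Esam, whereas Pecam1 averaged 0.266 CPM with palmitate and 0.228 CPM with vehicle. Of 6 leukocyte markers 3 were counted and summed to 0.484 to 0.626 CPM with palmitate and 0.910 to 1.21 CPM with vehicle. Ptprc (0.266 CPM with palmitate, 0.836 with vehicle) and Itgam (0.0147, 0.0329) averaged lower with palmitate, and Csf1r (0.267, 0.192) higher. Of 7 fibroblast markers 4 were counted, and the most abundant, Col1a1, averaged 0.710 CPM with palmitate and 1.45 CPM with vehicle. Col1a2 also averaged lower with palmitate (0.133 CPM, 0.189 with vehicle). Pdgfra (0.0888 CPM) and Dcn (0.0885 CPM) had a few counts with palmitate and 0 with vehicle. The part of these shifts in the results on Notch genes was not tested.

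With palmitate, message for the receptors Notch1 and Notch3 and the target Hey1 rose, and message for the receptor Notch2, the nuclear factor Rbpj and the target Hes1 fell. The ligands Jag1, Jag2 and Dll4 did not pass the threshold. So 6 of 9 tested members were called, 3 higher and 3 lower, by the quasi-likelihood test of edgeR (two-sided, threshold of 0.05 on the Benjamini-Hochberg p over all genes). Across all genes tested the same rule called 52.8%, with 27.4% higher and 25.4% lower, so a share of this size is near the background. The median size of a member's log2 fold change was 0.225, against 0.155 over all genes tested, and the signed medians were -0.01 and 0.00068. In bulk RNA, fewer cells that express a gene and less RNA of it per cell cannot be told apart.

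**Figure D1:**
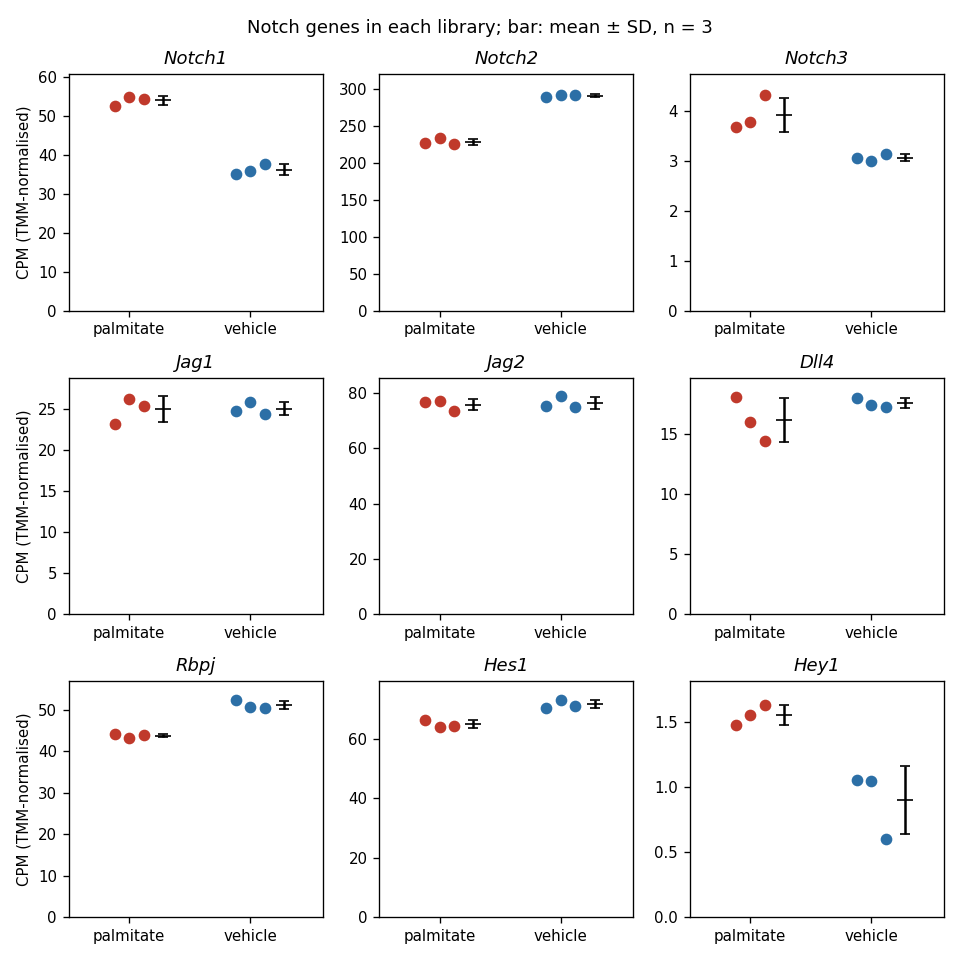
CPM (TMM-normalised) of each counted Notch gene in the 3 palmitate and 3 vehicle libraries; points are libraries and the bar beside them is the mean ± SD. Every palmitate library lies above every vehicle library for Notch1, Notch3 and Hey1 and below for Notch2, Rbpj and Hes1, while the groups overlap for the 3 ligands.

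The receptors moved in opposite directions. Notch1 (ENSMUSG00000026923.16), a receptor of intestinal crypt progenitors, had 52.7, 55.0 and 54.3 CPM in the palmitate libraries and 35.0, 35.9 and 37.7 CPM in the vehicle libraries. Its lowest palmitate value stood well above its highest vehicle value. By edgeR the log2 fold change was 0.57 (SE 0.0402, adjusted p = 1.72e-22), a rise of 48.9% with a 95% interval on the fold of 1.41 to 1.57. A called change at least this large was found in 12% of all genes tested. Notch2 (ENSMUSG00000027878.12), the other main receptor of the crypt, had 228, 233 and 225 CPM in the palmitate libraries and 289, 292 and 291 CPM in the vehicle libraries. The groups stood apart, with a gap many times wider than the spread within either. Its log2 fold change was -0.35 (SE 0.0196, adjusted p = 3.58e-28, edgeR), and the fold lay between 0.765 and 0.808 (95% interval). With counts between 5087 and 6428 per library, Notch2 had the deepest coverage of the set.

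Notch3 (ENSMUSG00000038146.9), a receptor best known from vascular smooth muscle, was scarce. It had 82, 85 and 98 counts in the palmitate libraries and 58, 66 and 68 counts in the vehicle libraries, or 3.67, 3.77 and 4.31 CPM against 3.06, 3.00 and 3.14 CPM. The groups did not overlap, but they lay close together. By edgeR the log2 fold change was 0.35 (SE 0.138, adjusted p = 0.0253), and its 95% interval ran from 0.079 to 0.63. The call was lost with DESeq2 (adjusted p = 0.162), against a minimum fold of 1.2 (adjusted p = 0.417), and without palmitate replicate 3, vehicle replicate 1 or vehicle replicate 2 (adjusted p = 0.125, 0.0533 and 0.0684 with edgeR), and over all alternatives its adjusted p was 0.0235 to 0.417. An annotated antisense transcript, Gm17276, shares 488 exonic bases with Notch3 and had 87, 106 and 113 counts with palmitate and 41, 58 and 57 counts with vehicle (log2 fold change 0.86, adjusted p = 2.54e-07 by edgeR). The library kit keeps strand, but the sources used here do not say whether counting used it, so reads of the pair may not have been told apart.

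The remaining receptor, Notch4, was not among the named members and is known mainly from endothelium. It had 12.2, 10.5 and 12.2 CPM in the palmitate libraries and 13.1, 12.9 and 14.6 CPM in the vehicle libraries. It fell by 0.22 on the log2 scale (SE 0.0737, adjusted p = 0.00796, edgeR), but its call was lost with DESeq2 (adjusted p = 0.109), against a minimum fold of 1.2 (adjusted p = 1) and without palmitate replicate 2 or vehicle replicate 3 (adjusted p = 0.105 and 0.0987), within a range of 0.00535 to 1 over all alternatives. Of the endothelial markers, Cdh5 was lower, at 1.45 ± 0.195 CPM with palmitate and 2.21 ± 0.337 CPM with vehicle (SD, n = 3 each). Scarce Tek (0.547 CPM with palmitate, 0.838 with vehicle), Kdr (0.0444, 0.0960) and Tie1 (0.0296, 0.124) also averaged lower. Pecam1 was near 0 in both groups (0.266, 0.228). Esam was higher, at 37.0 ± 1.33 CPM with palmitate and 33.4 ± 1.12 CPM with vehicle (SD, n = 3 each), as was the summed level, which is mostly Esam. The part of endothelial cells in the Notch4 result was not tested.

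Per kilobase of exon, Notch2 made up most of the receptor message in both groups. Its share of the summed Notch1 to Notch4 level was 78.9%, 79.4% and 78.1% in the palmitate libraries and 85.7%, 85.8% and 84.8% in the vehicle libraries. The Notch1 share was 13.8%, 14.2% and 14.3% with palmitate and 7.87%, 7.99% and 8.30% with vehicle. Neither share overlapped between the groups. The ratio of Notch1 to Notch2 per length was 0.179 ± 0.00360 with palmitate and 0.0943 ± 0.00322 with vehicle (SD, n = 3 each). It was 1.90 times as high with palmitate (exact permutation test, two-sided, p = 0.1, the smallest that 3 libraries against 3 allow). Both genes separated the groups, in opposite directions, so this p was fixed in advance and adds nothing to their fold changes. The summed receptor level per length was 26.9 ± 0.304 CPM per kb with palmitate and 31.6 ± 0.303 CPM per kb with vehicle, a ratio of 0.853 (SD, n = 3 each; exact permutation p = 0.1). The Notch3 share was 1.69% to 2.00% in the palmitate libraries and 1.17% to 1.22% in the vehicle libraries, and Notch4 held 5.35% ± 0.495 with palmitate and 5.31% ± 0.336 with vehicle (SD, n = 3 each).

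**Figure D2:**
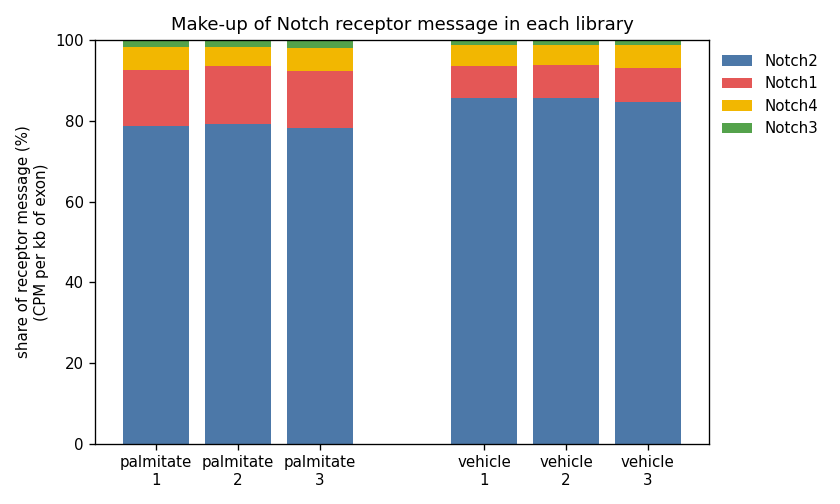
Share (%) of Notch1, Notch2, Notch3 and Notch4 in the summed receptor level, in CPM per kb of exon, in each palmitate and vehicle library. The Notch1 band is 13.8% to 14.3% in the palmitate libraries and 7.87% to 8.30% in the vehicle libraries, and the Notch2 band is narrower with palmitate.

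The promoters of Notch1 and Notch2 are shown because these receptors had the smallest p-values of the set and moved in opposite directions. Each window runs from 250 bases before to 50 bases after the start in RefSeq of build GRCm38.p6, which is an earlier build than the authors' mm39, and is written 5′ to 3′ on the gene's strand. Notch1 lies at chr2:26503773-26504072 on the minus strand and Notch2 at chr3:98013288-98013587 on the plus strand.
Notch1: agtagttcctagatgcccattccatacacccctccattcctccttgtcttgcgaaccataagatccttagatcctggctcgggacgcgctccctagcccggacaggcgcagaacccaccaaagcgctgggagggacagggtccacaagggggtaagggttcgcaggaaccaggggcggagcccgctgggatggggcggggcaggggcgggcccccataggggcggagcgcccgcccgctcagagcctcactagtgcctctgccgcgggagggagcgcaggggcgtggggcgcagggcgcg
Notch2: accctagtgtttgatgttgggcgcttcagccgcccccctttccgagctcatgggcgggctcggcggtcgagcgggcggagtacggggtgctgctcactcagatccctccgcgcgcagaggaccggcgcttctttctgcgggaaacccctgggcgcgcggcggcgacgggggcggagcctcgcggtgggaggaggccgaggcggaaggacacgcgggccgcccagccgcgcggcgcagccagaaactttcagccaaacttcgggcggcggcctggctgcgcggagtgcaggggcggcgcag
Both were GC-rich, at 68.3% GC with 23 CpG dinucleotides for Notch1 and 73% with 41 for Notch2, against medians of 52.7% and 7 over 32851 promoter windows of the same length. Neither held the RBPJ core TGGGAA on either strand, which 25.6% of all windows held. The same was true of the E-box CACGTG, held by 7.15% of windows, and of the nuclear receptor half-site AGGTCA, held by 16.3%. A missing match says only that these letters are not in these windows.

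None of the ligand genes passed the threshold, and their values overlapped between groups. Jag2 (ENSMUSG00000002799.7), a Jagged ligand, had 76.9, 77.2 and 73.5 CPM in the palmitate libraries and 75.5, 79.0 and 75.0 CPM in the vehicle libraries (log2 fold change -0.01, SE 0.0319, adjusted p = 0.752 by edgeR). The 95% interval of its fold was 0.948 to 1.03. Jag1 (ENSMUSG00000027276.8), the other Jagged ligand, had 23.2, 26.3 and 25.4 CPM in the palmitate libraries and 24.8, 25.9 and 24.4 CPM in the vehicle libraries (log2 fold change -0.0035, SE 0.0526, adjusted p = 0.964 by edgeR). Its fold lay between 0.928 and 1.07 (95% interval). In these libraries both Jagged intervals left out changes as large as those of Notch1 or Notch2. If the samples were not separate cultures, the intervals do not cover variation among cultures.

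Dll4 (ENSMUSG00000027314.7), a Delta-like ligand of intestinal crypts and sprouting vessels, had 18.0, 16.0 and 14.4 CPM in the palmitate libraries and 18.0, 17.4 and 17.2 CPM in the vehicle libraries. Palmitate replicate 1 matched the highest vehicle library, and the other two palmitate libraries lay below all vehicle libraries. By edgeR the log2 fold change was -0.12 (SE 0.0650, adjusted p = 0.109), and the fold lay between 0.840 and 1.01 (95% interval). Without palmitate replicate 1 the log2 fold change was -0.21 (adjusted p = 0.0111, edgeR), and after thinning to the shallowest library it was -0.17 (adjusted p = 0.0256), within a range of 0.0111 to 1 over all alternatives. The variance of Dll4 among libraries of a group was 2.47 times that of counting alone, the highest of the 9 members. An antisense transcript that shares 214 exonic bases with it, Gm14207, had 102, 84 and 116 counts with palmitate and 125, 137 and 136 counts with vehicle (log2 fold change -0.51, adjusted p = 8.70e-05, edgeR), and its reads may not have been told apart from those of Dll4.

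Summed per kilobase of exon, the 3 ligands stood at 19.4 ± 0.627 CPM per kb with palmitate and 19.8 ± 0.452 CPM per kb with vehicle (SD, n = 3 each; exact permutation p = 0.4, two-sided). Jag2 held more of this sum than Jag1 and Dll4 together, at 56.2% ± 0.306 with palmitate and 55.4% ± 0.526 with vehicle. The ratio of the ligand sum to the receptor sum was 0.719 ± 0.0200 with palmitate and 0.628 ± 0.0171 with vehicle, with no overlap between groups (SD, n = 3 each; exact permutation p = 0.1). Dll1 is left out of the ligand sum.

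Rbpj (ENSMUSG00000039191.13), which encodes the DNA-binding partner of the Notch intracellular fragment, fell. It had 44.1, 43.3 and 43.9 CPM in the palmitate libraries and 52.4, 50.7 and 50.5 CPM in the vehicle libraries. No palmitate library came near a vehicle library. By edgeR the log2 fold change was -0.23 (SE 0.0385, adjusted p = 4.72e-07), and the fold lay between 0.811 and 0.902 (95% interval). The call did not hold against a minimum fold of 1.2 (adjusted p = 1), within a range of 6.94e-08 to 1 over all alternatives. A processed copy, Rbpj-ps3, can share reads with Rbpj, and had 6, 8 and 4 counts with palmitate and 6, 12 and 7 counts with vehicle, against 976 to 1115 counts for Rbpj.

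The Rbpj promoter is shown because, of the 7 counted members with an entry, only Rbpj held the RBPJ core TGGGAA. Of all windows, 25.6% held that core. Of its 2 overlapping windows the upstream one, at chr5:53590096-53590395 on the plus strand of GRCm38.p6, held it at 149 bases before the start on the plus strand and at 65 bases before the start on the minus strand, counted to the first letter of the match as printed. Capitals mark TGGGAA or its reverse complement.
Rbpj: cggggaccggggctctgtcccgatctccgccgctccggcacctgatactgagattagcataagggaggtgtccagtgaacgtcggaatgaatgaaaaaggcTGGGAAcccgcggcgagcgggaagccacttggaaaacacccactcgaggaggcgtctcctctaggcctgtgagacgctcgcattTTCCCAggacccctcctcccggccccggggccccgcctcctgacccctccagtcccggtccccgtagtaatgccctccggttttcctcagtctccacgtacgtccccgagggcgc
The other window, which starts further downstream, holds the second of these matches again. Dll4, Jag1, Jag2 and Notch3 had no match, and Hes1 and Hey1 had no entry in the promoter table. A match in a window describes its letters and does not show binding.

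The targets parted. Hes1 (ENSMUSG00000022528.9), a repressor that holds down secretory fate in the gut, had 66.5, 63.9 and 64.5 CPM in the palmitate libraries and 70.5, 73.2 and 71.1 CPM in the vehicle libraries. The groups did not overlap, and the gap between them was small. The log2 fold change was -0.14 (SE 0.0330, adjusted p = 0.000165, edgeR), a fold between 0.866 and 0.949 (95% interval). The call was lost against a minimum fold of 1.2 (adjusted p = 1), within a range of 0.000113 to 1 over all alternatives.

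Hey1 (ENSMUSG00000040289.9), a related repressor best known from blood vessels and heart, was scarce. It had 33, 35 and 37 counts in the palmitate libraries and 20, 23 and 13 counts in the vehicle libraries, or 1.48, 1.55 and 1.63 CPM against 1.05, 1.05 and 0.600 CPM. Vehicle replicate 3 lay below the other vehicle libraries. The log2 fold change was 0.79 (SE 0.235, adjusted p = 0.00301, edgeR), with a wide 95% interval on the fold of 1.25 to 2.40. Its call was lost with DESeq2 (adjusted p = 0.0594) and without vehicle replicate 3 (log2 fold change 0.56, adjusted p = 0.0647, edgeR), within a range of 0.00241 to 0.0647 over all alternatives. In the authors' deposited table the log2 fold change of Hey1 was 0.80 with a q-value of 0.0609, and that of Notch3 was 0.36 with a q-value of 0.165.

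**Figure D3:**
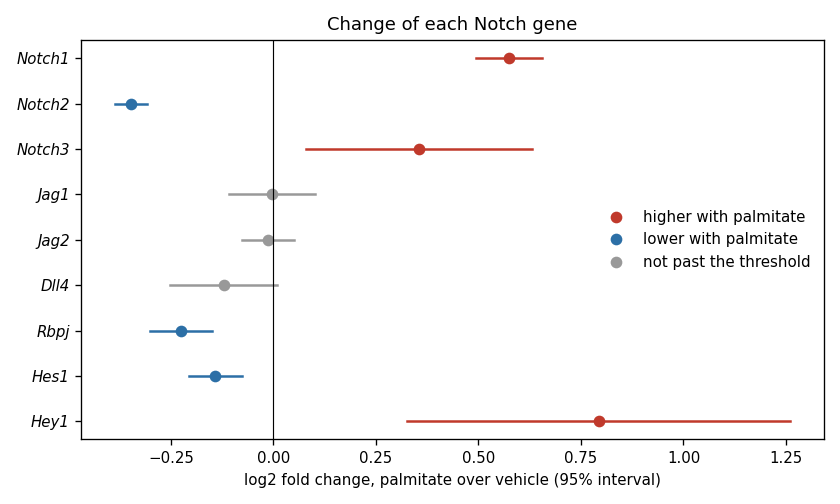
log2 fold change of each counted Notch gene, palmitate over vehicle, with its 95% interval (edgeR); red is higher, blue lower and grey not past the threshold. Notch1 at 0.57 and Notch2 at -0.35 have narrow intervals on opposite sides of 0, whereas those of Notch3 and Hey1 are wide.

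In order of level per kilobase of exon, Hes1 came first and Notch2 next in both groups. With palmitate, Hes1 averaged 31.9 ± 0.669, Notch2 21.2 ± 0.392 and Jag2 10.9 ± 0.296 CPM per kb, against 35.2 ± 0.677, 27.0 ± 0.160 and 11.0 ± 0.318 CPM per kb with vehicle (SD, n = 3 each). Below them with palmitate stood Jag1 (4.29 CPM per kb), Dll4 (4.18), Notch1 (3.79) and Rbpj (3.43), where Jag1 overlapped Dll4 and Dll4 overlapped Notch1. With vehicle the order was Dll4 (4.56 CPM per kb), Jag1 (4.29), Rbpj (4.02) and Notch1 (2.55), with no overlap between neighbours. Notch1 thus stood above Rbpj in every palmitate library and below it in every vehicle library. Notch3 and Hey1 came last in both groups, at 0.484 and 0.476 CPM per kb with palmitate, where they overlapped, and at 0.379 and 0.276 CPM per kb with vehicle, where they did not.

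Of the 9 members, 6 had groups that did not overlap, against 57.8% of all genes tested. For 6 members, the same 6 that were called, the variance within groups was no more than that of counting alone, and for the 3 ligands it was more. Spread beyond counting was small in general, with a common coefficient of variation of 1.28% over all genes tested. Against a minimum fold of 1.2 (glmTreat), Notch1, Notch2 and Hey1 were called, 3 of 9 members, where 15.2% of all genes tested were.

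**Figure D4:**
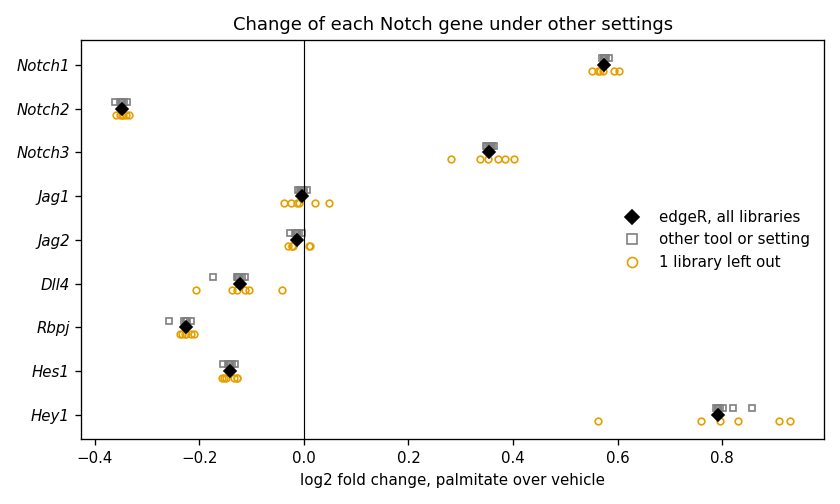
log2 fold change of each counted Notch gene, palmitate over vehicle, with edgeR on all libraries (black), with another tool or setting (grey squares) and with 1 library left out (orange circles). Notch1 stays between 0.55 and 0.60 and Notch2 between -0.36 and -0.33, while Hey1 runs from 0.56 to 0.93 and Jag1 and Jag2 lie on both sides of 0.

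Other genes of the pathway changed in both directions within most roles. Only 1 of 2 tested genes (50%) was called among other receptors and ligands, and 1 of 3 (33.3%) for turnover of the fragment. With 1 call each, these roles could show only 1 direction. The 2 tested secretory regulators were both lower, where 25.4% of all genes tested were called lower. Of 69 listed genes 64 were counted and 58 tested. Of these 34 were called, 15 higher and 19 lower, a share of 58.6% against 52.8% over all genes. This share is near the background. Their median log2 fold change was -0.02. Only 4 of the 58 were called with at least a 1.5-fold change, namely Neurl1a, Dtx4, Hey2 and Spdef, where 11.7% of all genes tested were. Against a minimum fold of 1.2, these 4 and Kat2a and Maml3 were called.

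Enzymes that prepare the receptor and ligand were split. Among genes of receptor maturation, 1 of 5 tested was higher and 2 lower, a share of 60% against 52.8% over all genes. Lfng, a sugar transferase of the Fringe family that alters which ligand a receptor answers, fell (58.7 ± 2.67 CPM with palmitate, 71.8 ± 1.97 CPM with vehicle, SD, n = 3 each; log2 fold change -0.29, adjusted p = 8.92e-12, edgeR), while its relative Rfng rose by 0.31 on the log2 scale. The protease gene Furin, which cuts the receptor during its maturation, fell (-0.15). Of 4 tested ubiquitin ligase genes for ligands, 1 was higher and 2 lower, a share of 75% against the same 52.8%. Neurl1a had 4.97, 5.59 and 5.50 CPM in the palmitate libraries and 2.48, 2.09 and 2.03 CPM in the vehicle libraries. The groups stood far apart. Its log2 fold change was 1.29 (SE 0.140, adjusted p = 2.93e-13 by edgeR). The more abundant Neurl1b fell (72.3 ± 0.265 CPM with palmitate, 87.9 ± 1.29 CPM with vehicle, SD, n = 3 each; log2 fold change -0.28), and Mib2 fell (-0.18), although the call of Mib2 was lost with DESeq2 and without vehicle replicate 1.

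Genes for the cuts that free the intracellular fragment mostly had small changes, with a median size of 0.0944 on the log2 scale against 0.155 over all genes tested. Of 8 tested, 2 were higher and 3 lower, a share of 62.5% against 52.8% over all genes. Adam10, the outer protease, had 570 ± 8.81 CPM with palmitate and 594 ± 3.48 CPM with vehicle (SD, n = 3 each; log2 fold change -0.06, adjusted p = 0.0010, edgeR). Of the gamma-secretase subunits, Psen2 rose (0.36) and Ncstn fell (-0.15), given as log2 fold changes. Among regulators of receptor traffic, 3 of 7 tested were higher and 2 lower, a share of 71.4% against 52.8% over all genes. Dtx4, a Deltex ubiquitin ligase gene, had 99.0, 102 and 102 CPM in the palmitate libraries and 158, 153 and 160 CPM in the vehicle libraries (log2 fold change -0.64, SE 0.0252, adjusted p = 2.44e-38 by edgeR). The gap between its groups was far wider than the spread within them. Numb (0.22) and Itch (0.24), both of which hold Notch signalling down, rose, and Dtx3 (0.10) rose with a call that was lost with DESeq2, after thinning and without any of 4 single libraries (palmitate replicates 1 and 3, vehicle replicates 1 and 2).

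Nuclear partners of RBPJ also moved both ways. Of 8 tested coactivator genes 3 were higher and 3 lower, a share of 75% against 52.8% over all genes. The Mastermind genes, whose proteins bind the fragment on DNA, were split: Maml1 rose (0.15), and Maml2 (-0.36) and Maml3 (-0.37) fell, given as log2 fold changes. The acetyltransferase gene Kat2a rose, at 90.4 ± 2.17 CPM with palmitate and 70.5 ± 2.29 CPM with vehicle (SD, n = 3 each; log2 fold change 0.36, adjusted p = 1.47e-17, edgeR). Of 14 tested corepressor genes 3 were higher and 3 lower, a share of 42.9% against 52.8% over all genes. Among them were Ncor1 (0.15), Tle4 (0.12), Tle3 (-0.17) and Tle2 (-0.23). Of 3 genes for turnover of the fragment, only the kinase gene Cdk8 was called (0.07), and its call was lost with DESeq2, after thinning and without vehicle replicate 1.

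**Figure D5:**
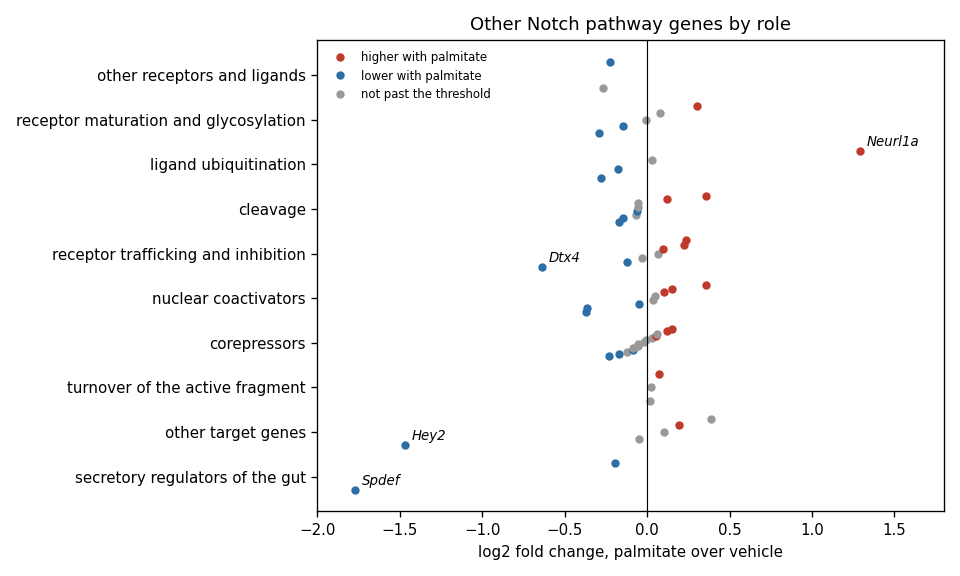
log2 fold change, palmitate over vehicle, of the 58 tested genes of the Notch pathway outside the named members, one point per gene, grouped by role; red is higher, blue lower and grey not past the threshold. Most points lie near 0, and Neurl1a, Dtx4, Hey2 and Spdef are named because they were called and changed at least 1.5-fold.

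Among the other target genes, 1 of 5 tested was higher and 1 lower, a share of 40% against 52.8% over all genes. Hey2, a close relative of Hey1, was scarce, with 15, 5 and 7 counts in the palmitate libraries and 20, 27 and 23 counts in the vehicle libraries. Every palmitate library was below every vehicle library, opposite to Hey1. Its log2 fold change was -1.47 (SE 0.310, adjusted p = 3.41e-05, edgeR). Nrarp, a feedback inhibitor of Notch signalling, had 17.1, 17.7 and 18.0 CPM in the palmitate libraries and 14.9, 15.2 and 15.9 CPM in the vehicle libraries (log2 fold change 0.20, SE 0.0626, adjusted p = 0.00597, edgeR), a call lost with DESeq2 (adjusted p = 0.0783) and against a minimum fold of 1.2, within a range of 0.00501 to 1 over all alternatives. Of the secretory regulators that lie downstream of HES1 and ATOH1 in the gut, both that were tested fell: Spdef by 1.77 on the log2 scale, and Gfi1 by 0.19 with a call that was lost with DESeq2, without a count filter and without palmitate replicate 1 or vehicle replicate 2 or 3 (adjusted p = 0.0289 to 1 over all alternatives). Dll3, Mfng, Aph1c, Dtx1, Hes2 and Olfm4 were counted but too low to test, at no more than 0.284 CPM on average in either group, and Dlk1, Hes5, Heyl, Atoh1 and Neurog3 were not analysed here.

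Genes whose values across the 6 libraries most resembled those of a member were sought for the called members with the greatest rise and the greatest fall, by the root mean square difference of centred log2 CPM among 13222 genes of at least 1 CPM. For Notch2 they were Aspm, a spindle gene (difference 0.0098, log2 fold change -0.35), Fmnl3, a formin gene (0.0127, -0.33), and Cers6, a ceramide synthase gene (0.0143, -0.32). For Hey1 they were Tprg (0.115, 0.78), Usp44 (0.122, 0.72) and Cenpp (0.123, 0.57). The differences were larger for Hey1, which had far fewer counts. The 6 points fall into 2 groups, so this measure counts a like difference between the groups as likeness.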

How the data were processed

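The authors' deposited table held raw counts per gene for 6 libraries. Build mm39 and the tools STAR 2.6.1, FastQC 0.11.8, DESeq2 1.34.0 and HTSeq are named in the submitters' processing notes, and the symbols are of Gencode vM30 per the deposited column description. The authors' deposited DESeq2 table gives log2 fold changes, p-values with q-values, and a signed score of the p-value. Groups came from the labels. The main test was edgeR 4.0.16 in R 4.3.3 (TMM, filterByExpr with a minimum count of 10, robust glmQLFit, glmQLFTest, two-sided) over all 14987 genes left, with Benjamini-Hochberg adjustment and a threshold of 0.05. CPM values are TMM-normalised. Standard errors are the log2 fold change over the root of F. Intervals and counts cover these libraries only, and counting error is largest for genes near 1 CPM.

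Exon lengths were the union of exons in GENCODE M21 (GRCm38), matched by Ensembl identifier for 96.4% of tested genes. A union of exons can be longer than the transcript present, so levels per length, and orders and shares between genes, depend on it. Promoters were matched by symbol for 8 of 10 named members. The alternatives tried were thinning to the shallowest library, leaving out each library, a block for the replicate number, size factors by median of ratios, testing without a count filter, limma-voom (limma 3.58.1), DESeq2 1.42.0 and glmTreat with a minimum fold of 1.2. In simulated counts for this comparison, run on 14793 genes, the share of changed genes that edgeR called was 69.4% for a 1.2-fold change, 90% for 1.5-fold, 89.8% for 2-fold and 100% for 3-fold, and 7 calls were false. Each fold had only 47 to 50 changed genes, whereas 52.8% of genes were called in the real counts. These shares may therefore not carry over. For genes with at least 20 summed counts, chi-square divided by degrees of freedom, between libraries of a group, reached at most 1.38 and was above 1 in all 6 pairs, so none was counted as a copy.

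The members and the pathway lists were chosen with earlier results of these data known. The text names every member, up to 4 called genes per pathway role by smallest p, any called pathway gene changed at least 1.5-fold, and the 3 genes most like each of 2 members, and 1 gene so chosen is not reported here. Plots came from matplotlib 3.10.9 (Python 3.11.15).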

Additional observations from a re-analysis of the deposited data

How the results depend on the processing

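Notch1 and Notch2 kept their direction and their call in all 13 alternatives, Notch1 with log2 fold changes of 0.55 to 0.60 and Notch2 of -0.36 to -0.33. Rbpj and Hes1 kept theirs in all but 1. Against a 1.2-fold change the counts of calls were 2275 genes, 3 members and 6 other pathway genes, in place of 7915, 6 and 34, since that test asks for a larger change; there Notch3 (0.35), Rbpj (-0.23) and Hes1 (-0.14) were not called. With DESeq2 4 members, 24 other pathway genes and 5692 genes were called, Notch3 (0.36) and Hey1 (0.80) were not, and the cause was not tested. Thinning gave Dll4 a log2 fold change of -0.17 that was called. With 1 library left out, the log2 fold change was 0.28 to 0.40 for Notch3, 0.56 to 0.93 for Hey1 and -0.207 to -0.0421 for Dll4, 5 to 7 members were called, and the fits had fewer samples. Jag1 and Jag2 changed sign in 3 and 2 alternatives and were called in none. Of 754 values for the 58 other pathway genes, 66 lost a call (28 of them against the 1.2-fold change and 10 with DESeq2), 14 gained one and none that was called changed sign. Same-numbered samples did not deviate together (correlations of -0.0018, 0.0066 and 0.0212). Spread within groups was close to that of counting, so these values cannot decide whether the numbers pair samples. With the replicate block 7933 genes, 6 members and 36 other pathway genes were called. Among the tested pathway genes named, depth limits Hey1, Hey2 and Notch3, with 5 to 98 counts per library. It also limits Neurl1a, with 44 to 47 counts per vehicle library.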
